A study of Mus musculus with 7 samples.

Results

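The genes of the proteasome, of its inducible form the immunoproteasome and of the proteins that cap, inhibit or assemble it were followed in 3T3-L1 cells treated with exosomes of adipose tissue (AT-Exos). They were taken from the table of genes by name, as every gene named Psm, then a letter from a to g and a digit, leaving out 4 names that contain -ps, and they were 50 of 34745 genes. 3T3-L1 is a mouse fibroblast line that can be induced to become adipocytes. Each of 7 groups had 1 RNA sequencing library, so that no group had a replicate. The control was labelled as cells with no treatment (the study's supplementary legends name PBS buffer), and the other groups received exosomes of inguinal white (iWAT), visceral white (vWAT) or brown (BAT) adipose tissue from mice on a low-fat (LFD) or a high-fat (HFD) diet. Libraries are named by diet and depot, so that LFD-vWAT-Exos stands for cells given exosomes of visceral fat from mice on the low-fat diet. All 7 groups carried the genotype label WT and shared one protocol of differentiation. Cells were induced with insulin, 3-isobutyl-1-methylxanthine and dexamethasone. They were used at days 8 to 10 as adipocytes, with exosomes left on them for 48 h in every group but the control. The cell type field of the labels reads mouse embryonic fibroblasts instead, and neither the age of the mice nor how many gave each exosome preparation is on the labels.

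The proteasome is the barrel-shaped protease that degrades proteins tagged with ubiquitin. Its core is built of rings of α subunits, which form the gate, and of β subunits, among which Psmb5, Psmb6 and Psmb7 carry the chymotrypsin-like, caspase-like and trypsin-like sites. Interferon-γ induces Psmb8, Psmb9 and Psmb10, which take the places of Psmb5, Psmb6 and Psmb7 in newly built cores and give the immunoproteasome, known for making peptides for MHC class I. The regulatory particle that recognises and unfolds ubiquitinated proteins has a base, with the ATPases Psmc1 to Psmc6, and a lid. The alternative cap PA28, made of Psme1 and Psme2, is induced by interferon-γ as well. When proteasome activity is limiting, the transcription factor NRF1 (Nfe2l1) is known to raise the genes of core and regulatory particle together.

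By role, the members were 8 α-ring genes, 4 β-ring genes without a catalytic site, 3 constitutive and 3 immunoproteasome catalytic subunits, the thymus-specific Psmb11, 6 base ATPases, 3 other base subunits, 8 lid subunits, 3 base and 4 core assembly chaperones, Psme1 and Psme2 with Psme2b, the activators Psme3 and Psme4, the inhibitor Psmf1, and Psmc3ip. Psmc3ip is a member by its name only, since its product, HOP2, acts in meiotic recombination. Psme2b is a retrocopy of Psme2, and 78.4% of the 31-base words in its transcripts also occur in Psme2, so that how reads were divided between them is uncertain. Sharing of at least 20% of such words or of exon bases with another gene also makes Psma5, Psmb3, Psmb5, Psmc1, Psmc3ip, Psmd2, Psmd9 and Psme2 uncertain, with the highest shares in Psmb5 (71.7%, with the pseudogene Gm3375) and Psma5 (58.7%, with Gm8394). Psma8, the testis form of the α ring, had 0 counts in every library, and Psmb11 had 4 counts in the control, 1 in LFD-BAT-Exos and 0 in the other 5 libraries. The other 48 members reached 1 CPM (the count after scaling to a common library total), in at least 1 library, and percentages of members below are out of the members tested among these 48.

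The libraries held 13493560 to 24345291 counts, so that 3 counts, the limit that a count of 0 allows, stood at 0.122 to 0.235 CPM. LFD-vWAT-Exos was the smallest and stood apart from the other 6, with 1.10% of its counts from mitochondrial genes against 2.19% to 2.60% and between 3613 and 3837 genes at least 2-fold apart from any other library, against 208 to 643 in the 15 pairs among the others. Most adipocyte markers were low throughout: 8 of 11 stayed under 1 CPM in every library, and their summed level, most of it Lpl, was 315 CPM in LFD-vWAT-Exos against 1117 to 1369 CPM. Lpl stood at 218 CPM there against 929 to 1211 CPM, and Fabp4 at 75.5 CPM against 78.3 to 174 CPM. Pparg went the other way, at 21.6 CPM there against 12.4 to 14.2 CPM. The 8 fibroblast markers summed to 28796 CPM there and to 46571 to 55550 CPM in the other 6. Of these markers only Lox was higher there, at 10033.5 CPM against 5451 to 6082 CPM. Pdgfra was lower by little, at 1160 CPM against 1189 to 1333 CPM. Macrophage and myeloid markers summed to 119 CPM in LFD-vWAT-Exos and to 33.9 to 47.6 CPM elsewhere, with Cd14 at 78.1 CPM against 24.0 to 33.5 CPM, Cd68 at 13.96 against 3.47 to 6.34 CPM, Csf1r at 11.8 against 0.540 to 1.10 CPM and Mrc1 at 10.0 against 0.495 to 2.44 CPM. Lyz2 stood at 4.55 CPM there, within the range of the others, and the other 6 of the 11 stayed under 1 CPM in every library, among them Ptprc at no more than 0.235 CPM and Tyrobp at 0. The 9 lymphocyte markers were under 1 CPM in every library. The part of these differences in the results below was not tested. In such bulk samples, fewer cells of a type and less RNA per cell cannot be told apart.

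Promoter windows of 300 bases (250 before to 50 after the transcription start) in RefSeq (GRCm38.p6) were found for 42 members, with 45 windows, and searched on both strands for the interferon-stimulated response element (ISRE), the interferon-γ activated site (GAS, TTCNNNGAA) and the antioxidant response element (ARE, TGACNNNGC), the last being the class of element that NRF1 binds. The ISRE pattern stood in windows of Psmb3, Psmd4, Psmd9, Psme1 and Psmg4, which is 11.1% of the members' windows against 3.44% of all 32851 windows in the table. The GAS pattern stood in those of Psmb8, Psmd2 and Psmg1, 6.67% against 8.30%, and the ARE pattern in those of Psmb5, Psmb6, Psmc6, Psmd12, Psmd9 and Psme4, 13.3% against 12.4%. A match describes letters and is not a bound site. Windows of the immunoproteasome genes Psmb9 and Psmb10 and of the lid genes Psmd8 and Psmd11 held no match to any of these patterns. The windows below belong to the PA28 pair, to a catalytic pair (Psmb5 and Psmb8) and to a lid subunit whose level in LFD-vWAT-Exos lay opposite to that of PA28. They are printed 5′ to 3′ on the gene's strand with the matched motif in capitals: the ISRE on the reverse strand in Psme1 (chr14:55578244-55578543, plus strand), none in Psme2 (chr14:55591052-55591351, minus strand), the GAS in Psmb8 (chr17:34197945-34198244, plus strand), the ARE in Psmb5 (chr14:54617946-54618245, minus strand) and the ARE on the reverse strand in Psmd12 (chr11:107479278-107479577, plus strand).
Psme1: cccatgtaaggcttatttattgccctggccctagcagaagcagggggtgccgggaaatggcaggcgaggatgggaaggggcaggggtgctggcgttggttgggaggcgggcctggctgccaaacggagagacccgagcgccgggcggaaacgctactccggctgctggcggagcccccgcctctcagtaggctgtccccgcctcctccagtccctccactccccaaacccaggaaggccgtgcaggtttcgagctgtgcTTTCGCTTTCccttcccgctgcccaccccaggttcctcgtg
Psme2: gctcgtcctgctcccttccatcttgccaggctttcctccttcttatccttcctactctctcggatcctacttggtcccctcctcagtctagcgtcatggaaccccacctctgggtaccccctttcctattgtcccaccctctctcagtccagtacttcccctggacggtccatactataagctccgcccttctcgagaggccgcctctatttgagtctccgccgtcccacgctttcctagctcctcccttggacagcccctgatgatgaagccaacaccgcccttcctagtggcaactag
Psmb8: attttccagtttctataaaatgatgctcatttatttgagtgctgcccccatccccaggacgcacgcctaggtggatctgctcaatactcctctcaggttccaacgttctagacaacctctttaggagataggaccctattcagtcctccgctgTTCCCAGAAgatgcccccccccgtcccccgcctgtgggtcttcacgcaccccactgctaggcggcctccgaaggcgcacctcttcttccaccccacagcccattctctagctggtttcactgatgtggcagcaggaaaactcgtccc
Psmb5: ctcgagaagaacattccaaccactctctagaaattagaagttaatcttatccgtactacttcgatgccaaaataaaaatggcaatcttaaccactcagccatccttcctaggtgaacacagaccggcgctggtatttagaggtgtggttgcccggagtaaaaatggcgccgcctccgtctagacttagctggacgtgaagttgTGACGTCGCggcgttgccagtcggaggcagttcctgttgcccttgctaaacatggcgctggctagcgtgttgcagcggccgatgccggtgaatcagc
Psmd12: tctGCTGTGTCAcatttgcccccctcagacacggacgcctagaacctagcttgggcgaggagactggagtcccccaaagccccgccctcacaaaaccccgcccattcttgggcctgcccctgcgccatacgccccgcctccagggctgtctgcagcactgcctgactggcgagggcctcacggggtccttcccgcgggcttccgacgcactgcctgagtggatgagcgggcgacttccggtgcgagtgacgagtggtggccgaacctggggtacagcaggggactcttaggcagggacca

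The ISRE of Psme1 starts 10 bases after the transcription start, the GAS of Psmb8 97 bases before it, the ARE of Psmb5 47 bases before it and that of Psmd12 247 bases before it. Psme1 and Psme2 lie close together on chromosome 14 (GRCm38, 55578123 to 55581529 on the plus strand and 55587441 to 55591113 on the minus strand). Psmb8 (17, 34197721 to 34201454, plus strand) and Psmb9 (17, 34181987 to 34187764, minus strand) lie in the MHC region, where the window of Psmb9 shares 275 bases with that of Tap1, a peptide transporter gene read from the other strand.

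The constitutive catalytic subunits were expressed at higher levels than the immunoproteasome subunits in every library. The deposited FPKM divides by a length in which overlapping exons count more than once for most genes, so levels between genes are given as CPM per kilobase of merged exons (GENCODE M21), as medians over the 7 libraries, with FPKM beside them. On the CPM per kilobase scale, Psmd2, a base scaffold subunit, stood highest at 97.2, followed by Psmb4 at 77.7 and Psma6 at 75.4, and the catalytic subunits Psmb6, Psmb5 and Psmb7 stood at 44.4, 27.1 and 21.8. Psme1 and Psme2 stood at 19.7 and 12.3. Psmb10, Psmb9 and Psmb8 came to 4.62, 1.39 and 0.226 on this scale, at places 42, 47 and 48 of 48, and to median FPKM values of 6.27, 0.819 and 0.201. The order among members differs between these scales, with Psmb1 first by FPKM at 160.0. Psmb10 stood above the lid subunit Psmd13 by FPKM (5.32 in Psmd13), whereas per kilobase every lid subunit stood at 10.6 or more.

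Among the 6 libraries other than LFD-vWAT-Exos, proteasome genes varied little. The highest of the 6 values exceeded the lowest by a median of 1.20-fold over the 48 members, from 1.08-fold in Psme3 to 1.77-fold in Psmb9, and by 1.31-fold over all genes at 1 CPM or more. At 10 CPM or more these medians were 1.20-fold and 1.25-fold. Genes were called apart between a pair of libraries where they differed at least 2-fold with an exact 95% counting interval of the ratio that excluded equal levels. By that rule 0 members were apart in any of the 15 pairs among these 6 libraries, where 1.67% to 5.15% of all genes were, and 4 to 5 members in each of the 6 pairs with LFD-vWAT-Exos, where 28.7% to 30.5% of all genes were. The largest difference among the 15 pairs was 0.81 on the log2 scale, in Psmb9. Counting intervals cover neither PCR copies nor differences between cultures, and no test compares 2 single libraries.

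In LFD-vWAT-Exos the PA28 activator genes were the lowest proteasome genes relative to the control, while most core subunits were slightly lower and several base and lid subunits higher. At least 2-fold, 4 of 48 members (8.33%) were lower than in the control, namely Psme1, Psme2, Psme2b and Psmc3ip, and 0 were higher. Over all genes tested, 17.1% were lower by that rule and 13.3% higher, so that a smaller share of proteasome genes than of all genes lay that far from the control. At any size beyond counting error, 24 of 48 members were lower (background 40.8%) and 11 higher (background 39.3%). The median log2 ratio was -0.15 over the members and -0.03 over all genes. Scaling to total counts alone moved the median of all genes to -0.13 and the calls to 27 lower and 7 higher, with Psma7, Psmb4, Psmd5 and Psmf1 no longer called higher. Leaving out Psmc3ip, at -1.80, the log2 ratios by role ran from a median of -1.22 for PA28 to 0.40 for the base subunits other than ATPases.

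**Figure D1:**
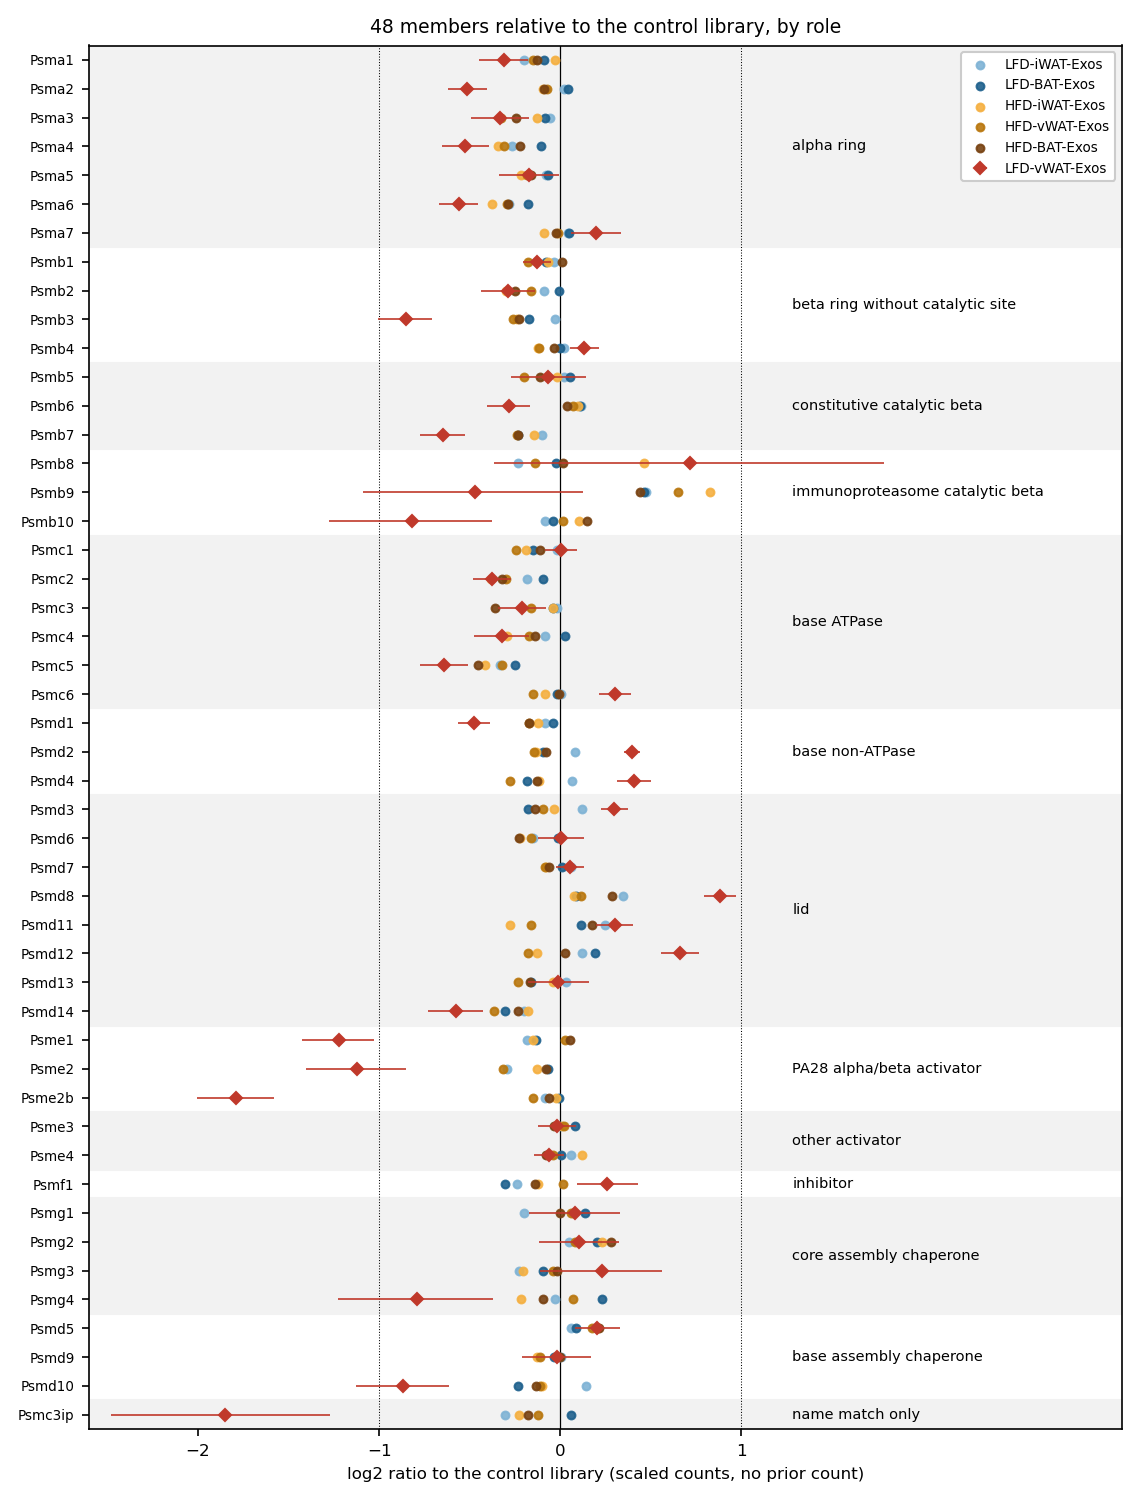
Log2 ratio to the control (x axis) of the 48 members at 1 CPM or more, grouped by role (y axis), in the 6 exosome libraries; red diamonds are LFD-vWAT-Exos with exact 95% counting intervals, and dotted lines mark 2-fold. The red diamonds of Psme1, Psme2, Psme2b and Psmc3ip lie beyond 2-fold on the lower side, and the points of the other 5 libraries lie within 2-fold for every member.

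Values below follow the order iWAT, vWAT and BAT within each diet. Psme1, the PA28α subunit, measured 47.6 CPM in the control, 42.0, 20.4 and 43.4 CPM in the LFD libraries and 42.9, 48.5 and 49.3 CPM in the HFD libraries. Psme2, its partner PA28β, measured 23.8 CPM in the control, 19.4, 10.9 and 22.7 CPM in the LFD libraries and 21.7, 19.1 and 22.5 CPM in the HFD libraries, and the retrocopy Psme2b 58.9 CPM in the control, 55.5, 17.0 and 58.5 CPM in the LFD libraries and 57.9, 52.9 and 56.4 CPM in the HFD libraries. In each of these genes LFD-vWAT-Exos was the single low library, and the other 6 lay close together. Relative to the control, Psme1 was 2.33-fold lower (interval 2.04 to 2.68) in LFD-vWAT-Exos, Psme2 2.18-fold lower (interval 1.81 to 2.65) and Psme2b 3.46-fold lower (interval 2.99 to 4.01), where the intervals are 95% counting intervals of the ratio. The other activators behaved differently. Psme3, which forms the nuclear cap PA28γ, measured 91.7 CPM in the control, 92.1, 90.6 and 96.9 CPM in the LFD libraries and 92.2, 93.0 and 89.5 CPM in the HFD libraries. Psme4, the activator PA200, measured 153 CPM in the control, 159.8, 147 and 154 CPM in the LFD libraries and 167, 149 and 145 CPM in the HFD libraries. Both were at the level of the other libraries in LFD-vWAT-Exos, with ratios to the control of 0.988 and 0.958 whose intervals include 1. Psmf1, the inhibitor PI31, measured 32.2 CPM in the control, 27.3, 38.6 and 26.1 CPM in the LFD libraries and 29.6, 32.5 and 29.3 CPM in the HFD libraries, and it was 1.20-fold higher (interval 1.07 to 1.34) in LFD-vWAT-Exos than in the control.

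**Figure D2:**
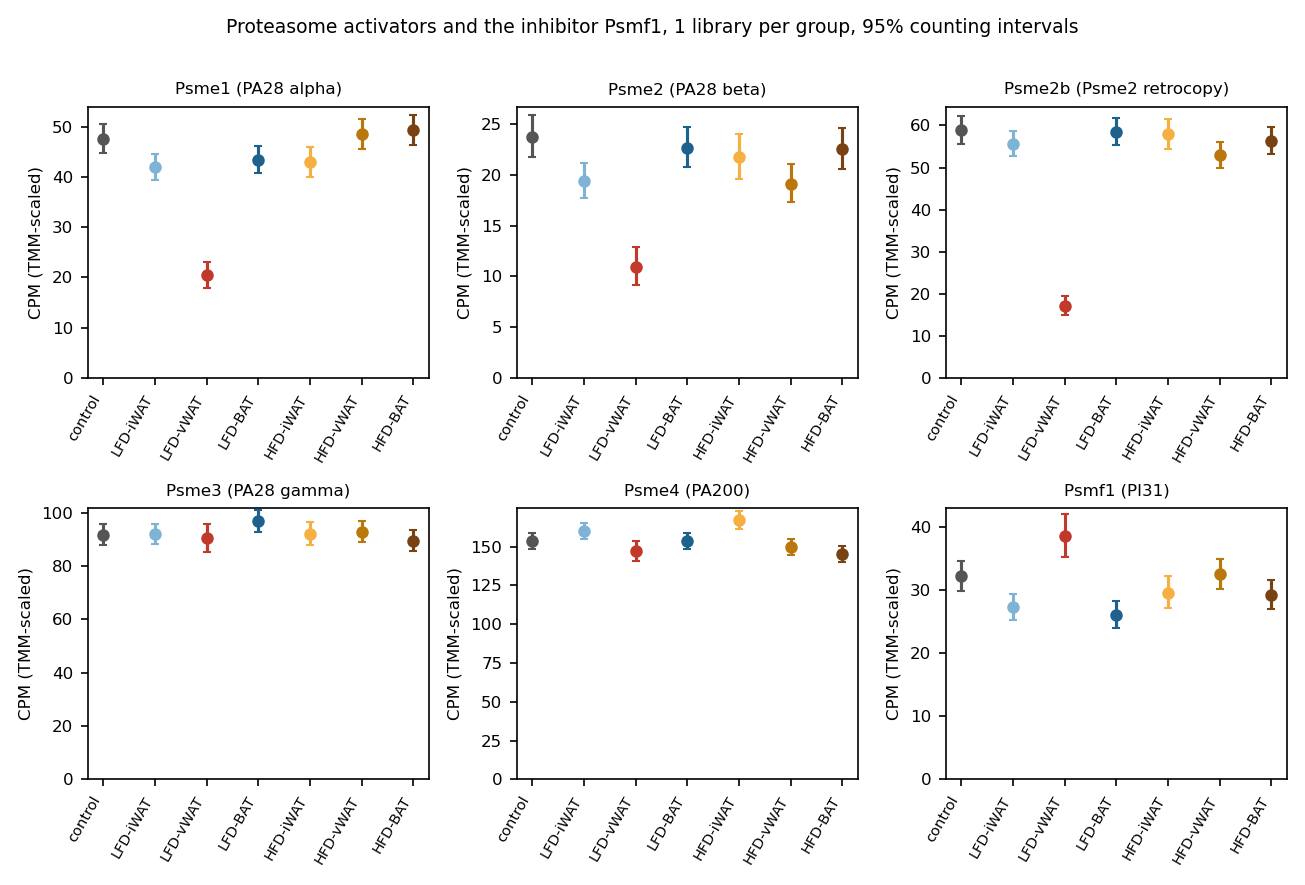
CPM (y axis, scaled by TMM) of the activators Psme1, Psme2, Psme2b, Psme3 and Psme4 and of the inhibitor Psmf1 in each of the 7 libraries (x axis), 1 point per library with its 95% counting interval. LFD-vWAT-Exos is the low point for Psme1 (20.4 CPM), Psme2 (10.9 CPM) and Psme2b (17.0 CPM) and not for Psme3 (90.6 CPM), where the 7 values are close.

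The catalytic subunits divided in another way. Psmb10, the trypsin-like subunit of the immunoproteasome, measured 7.88 CPM in the control, 7.44, 4.47 and 7.65 CPM in the LFD libraries and 8.48, 7.97 and 8.74 CPM in the HFD libraries. It was 1.76-fold lower (interval 1.30 to 2.42) in LFD-vWAT-Exos than in the control. Psmb9, the immunoproteasome counterpart of Psmb6, measured 3.69 CPM in the control, 5.12, 2.67 and 5.09 CPM in the LFD libraries and 6.54, 5.79 and 5.01 CPM in the HFD libraries. LFD-vWAT-Exos was lowest and the control second lowest, and the interval of their ratio (0.918 to 2.13-fold lower) includes equal levels. Psmb8, the counterpart of Psmb5, had 17 reads in the control, 16, 16 and 17 in the LFD libraries and 19, 15 and 17 in the HFD libraries. At 15 to 19 reads a library, no difference in Psmb8 was detectable at this depth. Among the constitutive subunits, Psmb7 measured 87.6 CPM in the control, 81.6, 55.8 and 74.6 CPM in the LFD libraries and 79.3, 74.1 and 74.5 CPM in the HFD libraries, and it was 1.57-fold lower (interval 1.44 to 1.71) in LFD-vWAT-Exos than in the control. Psmb6 measured 79.0 CPM in the control, 85.6, 64.9 and 85.2 CPM in the LFD libraries and 84.6, 83.1 and 81.2 CPM in the HFD libraries, with LFD-vWAT-Exos 1.22-fold (interval 1.12 to 1.32) below the control. Psmb5 measured 24.7 CPM in the control, 25.1, 23.6 and 25.7 CPM in the LFD libraries and 24.4, 21.5 and 22.9 CPM in the HFD libraries, and its ratio in LFD-vWAT-Exos was within counting error of the control. The trypsin-like subunits of both forms were low in that library by similar factors, whereas Psmb5 was not.

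**Figure D3:**
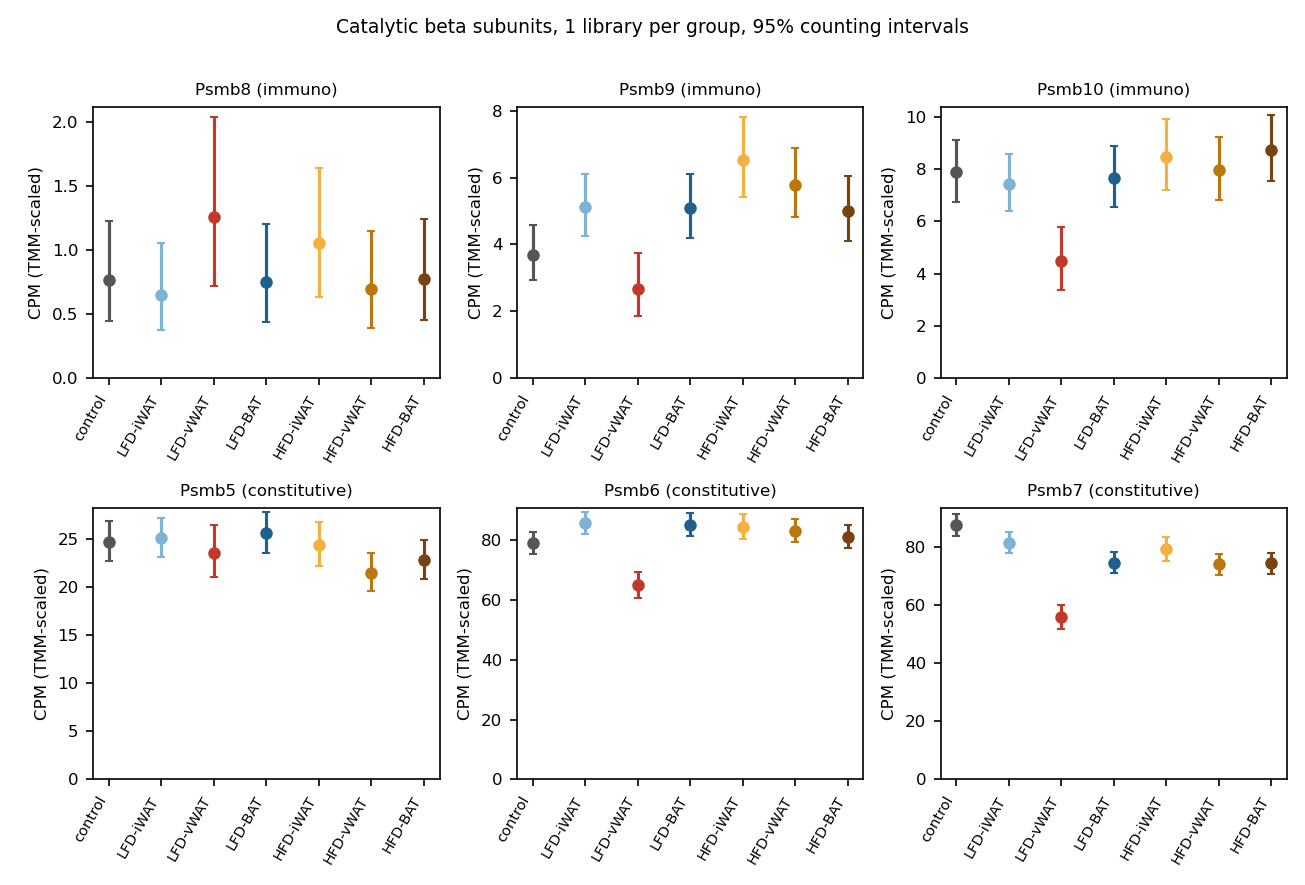
CPM (y axis, scaled by TMM) of the immunoproteasome subunits Psmb8, Psmb9 and Psmb10 and of the constitutive subunits Psmb5, Psmb6 and Psmb7 in each of the 7 libraries (x axis), 1 point per library with its 95% counting interval. Psmb10 stands at 4.47 CPM in LFD-vWAT-Exos, below the 7.44 to 8.74 CPM of the other 6, while the intervals of Psmb8 overlap in all 7.

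In the α ring, 6 of 7 genes were lower in LFD-vWAT-Exos than in the control beyond counting error, by 1.13-fold to 1.47-fold, and Psma7 was higher. By the same rule 40.8% of all genes were lower and 39.3% higher, which is also the background of the β-ring counts below. Psma6 measured 114 CPM in the control, 93.4, 77.2 and 101 CPM in the LFD libraries and 87.8, 92.9 and 93.0 CPM in the HFD libraries, with LFD-vWAT-Exos lowest and 1.47-fold (interval 1.37 to 1.59) below the control. Psma7 measured 48.2 CPM in the control, 49.7, 55.2 and 49.8 CPM in the LFD libraries and 45.2, 47.7 and 47.4 CPM in the HFD libraries, with LFD-vWAT-Exos highest. Among the β-ring genes without a catalytic site, 3 of 4 were lower and Psmb4 higher. Psmb3 measured 69.5 CPM in the control, 68.1, 38.4 and 61.5 CPM in the LFD libraries and 58.9, 58.0 and 59.4 CPM in the HFD libraries, so that it was 1.81-fold lower (interval 1.63 to 2.01) in LFD-vWAT-Exos. Psmb4 measured 152 CPM in the control, 154, 167 and 152 CPM in the LFD libraries and 139, 140.1 and 148 CPM in the HFD libraries. The highest of its 7 values was that of LFD-vWAT-Exos, 1.10-fold (interval 1.04 to 1.16) above the control.

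In the regulatory particle, 4 of 6 ATPases were lower in LFD-vWAT-Exos than in the control and 1 higher, and 4 of 8 lid subunits were higher and 1 lower, where 40.8% of all genes were lower and 39.3% higher by the same rule. A share of 4 in 8 is near that of all genes. Psmc5 measured 77.0 CPM in the control, 61.1, 49.3 and 64.7 CPM in the LFD libraries and 57.7, 61.6 and 56.3 CPM in the HFD libraries, with the control highest and LFD-vWAT-Exos lowest. Psmc6 measured 113 CPM in the control, 114, 140.0 and 112 CPM in the LFD libraries and 107, 102 and 113 CPM in the HFD libraries, and LFD-vWAT-Exos was highest. Of the 3 other base subunits, Psmd2 and Psmd4 were higher and Psmd1 lower. Psmd4, a ubiquitin receptor of the proteasome, measured 100.1 CPM in the control, 105, 133 and 88.1 CPM in the LFD libraries and 92.4, 82.5 and 91.6 CPM in the HFD libraries, and was 1.33-fold higher (interval 1.24 to 1.41) in LFD-vWAT-Exos. Psmd1, a scaffold of the base, measured 161 CPM in the control, 152, 116 and 157 CPM in the LFD libraries and 148, 142 and 142 CPM in the HFD libraries, and was 1.39-fold lower (interval 1.31 to 1.48). The higher lid subunits were Psmd3, Psmd8, Psmd11 and Psmd12, and the lower was Psmd14. Psmd8 measured 88.7 CPM in the control, 113, 163 and 94.0 CPM in the LFD libraries and 93.6, 96.0 and 108 CPM in the HFD libraries. It was 1.84-fold higher (interval 1.73 to 1.96) in LFD-vWAT-Exos, the highest ratio of any member, and the next highest library was LFD-iWAT-Exos. Psmd12, singled out after its values were seen, measured 71.2 CPM in the control, 77.5, 113 and 81.3 CPM in the LFD libraries and 65.0, 62.8 and 72.5 CPM in the HFD libraries. In LFD-vWAT-Exos it was 1.58-fold higher (interval 1.47 to 1.70). Psmd14, the deubiquitinase of the lid, measured 58.0 CPM in the control, 50.4, 38.8 and 47.0 CPM in the LFD libraries and 51.2, 44.9 and 49.2 CPM in the HFD libraries, and LFD-vWAT-Exos stood 1.49-fold (interval 1.34 to 1.66) below the control. Subunits of one lid differed in direction between the same libraries.

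Among the assembly chaperones, Psmd10 (gankyrin), which helps to build the base, measured 24.0 CPM in the control, 26.5, 13.2 and 20.4 CPM in the LFD libraries and 22.4, 22.3 and 21.9 CPM in the HFD libraries. In LFD-vWAT-Exos it was 1.82-fold lower (interval 1.53 to 2.18). Psmd5, another base chaperone, measured 59.2 CPM in the control, 61.6, 68.2 and 62.8 CPM in the LFD libraries and 68.3, 66.8 and 68.6 CPM in the HFD libraries, so that the control was lowest. Psmg4, a chaperone of the α ring, measured 8.56 CPM in the control, 8.37, 4.94 and 10.0 CPM in the LFD libraries and 7.37, 8.99 and 8.01 CPM in the HFD libraries, with LFD-vWAT-Exos lowest and 1.73-fold (interval 1.30 to 2.34) below the control. Psmg3, its partner, measured 8.38 CPM in the control, 7.15, 9.80 and 7.83 CPM in the LFD libraries and 7.26, 8.15 and 8.29 CPM in the HFD libraries, and the interval of its ratio to the control included equality. Psmc3ip, which is not a proteasome gene, measured 7.92 CPM in the control, 6.42, 2.20 and 8.27 CPM in the LFD libraries and 6.76, 7.27 and 7.01 CPM in the HFD libraries, with LFD-vWAT-Exos 3.61-fold (interval 2.41 to 5.59) below the control.

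HFD against LFD was compared within each depot. For vWAT the HFD library was at least 2-fold above the LFD library in 4 of 48 members (8.33%, background 17.3%), namely Psme1, Psme2b, Psmb9 and Psmc3ip, and 0 members were below it by that rule (background 12.3%). Psme1 was 2.38-fold higher (interval 2.07 to 2.73) after HFD-vWAT-Exos, Psme2b 3.11-fold higher (interval 2.69 to 3.61) and Psmb9 2.17-fold higher (interval 1.48 to 3.27). Psme2 and Psmb10 were 1.75-fold (interval 1.44 to 2.14) and 1.78-fold (interval 1.31 to 2.45) higher. In the lid 7 of 8 subunits were lower after HFD-vWAT-Exos beyond counting error and Psmd14 higher, with Psmd12 1.79-fold lower (interval 1.66 to 1.93) and Psmd8 1.70-fold lower (interval 1.60 to 1.81). Over all 48 members 18 were higher (background 40.3%) and 14 lower (background 39.2%), or 24 and 9 with counts scaled to their total alone. This comparison shares the LFD-vWAT-Exos library with the one against the control, so that its values are not a separate observation of that library. For iWAT and BAT 0 members were 2-fold apart between the diets in either direction (background 1.47% higher and 1.08% lower for iWAT, 0.931% higher and 1.05% lower for BAT). Beyond counting error 17 of 48 members were lower and 3 higher after HFD-iWAT-Exos than after LFD-iWAT-Exos (background 23.3% and 21.6%), and 16 of 47 were lower and 5 higher after HFD-BAT-Exos than after LFD-BAT-Exos (background 18.3% and 19.8%). Of the 6 ATPases, 4 were lower in each of these 2 comparisons.

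Between depots, LFD-vWAT-Exos against LFD-iWAT-Exos gave 4 members at least 2-fold lower (8.33%, background 17.1%) and 0 higher (background 12%), with 24 lower and 13 higher beyond counting error (background 40.4% and 39.5%), or 28 and 8 with counts scaled to their total alone. Psmd10, at 2.01-fold (interval 1.70 to 2.40) below LFD-iWAT-Exos, was apart here besides Psme1, Psme2b and Psmc3ip. HFD-vWAT-Exos against HFD-iWAT-Exos gave 0 members apart (background 1.16% in each direction), and 8 of 48 were lower and 2 higher beyond counting error (background 22.3% and 20.7%).

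Relative to the control, small decreases of constitutive subunits were frequent after HFD exosomes and also after LFD-BAT-Exos. In HFD-vWAT-Exos 29 of 47 members tested (61.7%) were lower beyond counting error, against 19.7% of all genes, and 3 were higher (Psmb9, Psmd5 and Psmd8), against 19.1%. The median log2 ratio of the members was -0.15, whereas that of all genes was -0.00, and 0 members reached 2-fold (background 0.853% lower and 1.12% higher). Restricted to genes at 10 CPM or more, 29 of 42 members were lower against 23.4% of all genes, and 2 higher against 20.5%. The lower members were spread over the complex, with 6 of 6 ATPases, 3 of 3 other base subunits, 7 of 8 lid subunits, 5 of 7 α-ring genes and 4 of 4 β-ring genes without a catalytic site. Of the 7 assembly chaperones 0 were lower. In HFD-BAT-Exos 22 of 47 members were lower (46.8%, background 21.4%) and 5 higher (background 21.9%), with 6 of 7 α-ring genes and 5 of 6 ATPases among the lower. In HFD-iWAT-Exos 21 of 48 were lower (43.75%, background 23.8%) and 4 higher (background 24.2%). After LFD-BAT-Exos the share was smaller but also above its background, at 16 of 47 lower (34.0%, background 17.8%) with 5 higher (background 16.8%). For LFD-iWAT-Exos it was near its background, with 12 of 47 lower (25.5%, background 26.4%) and 7 higher (background 28.2%). LFD-vWAT-Exos, as given above, had 24 of 48 lower (50%, background 40.8%) and 11 higher (background 39.3%). At least 2-fold, 0 members were apart in any of the 4 comparisons of BAT and iWAT exosomes (background, higher and lower, 1.35% and 0.927% for HFD-BAT-Exos, 1.66% and 1.24% for HFD-iWAT-Exos, 1.01% and 0.764% for LFD-BAT-Exos, and 3.19% and 1.92% for LFD-iWAT-Exos). None of the differences between shares was tested. All 6 comparisons share the 1 control library, in which 15 of 48 members (31.25%) had their highest value of the 7 libraries against 12.7% of all genes. Psmc5, whose values are given above, was lower than the control in each exosome library, by 1.26-fold, 1.56-fold and 1.19-fold after LFD exosomes of iWAT, vWAT and BAT and by 1.33-fold, 1.25-fold and 1.37-fold after HFD exosomes. Psma6 was likewise lower by 1.13-fold to 1.47-fold. Psmb9 went the other way, at 1.39-fold and 1.38-fold above the control after LFD exosomes of iWAT and BAT and 1.77-fold, 1.57-fold and 1.36-fold after HFD exosomes of iWAT, vWAT and BAT, each with an interval above equality.

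**Figure D4:**
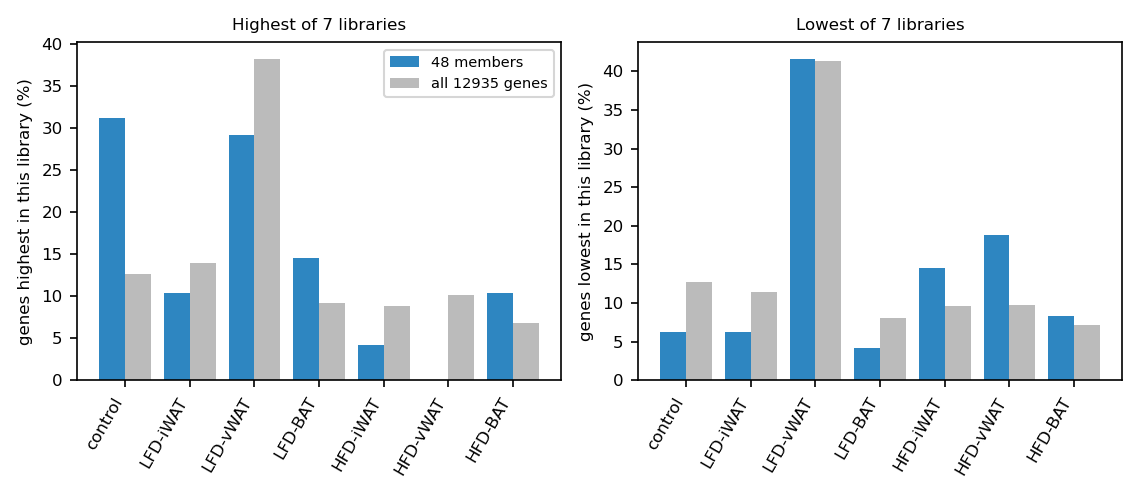
Share in percent (y axis) of the 48 members (blue bars) and of all 12935 genes at 1 CPM or more (grey bars) whose highest value (left) or lowest value (right) fell in each of the 7 libraries (x axis). The control held the highest value of 31.25% of members against 12.7% of all genes, HFD-vWAT-Exos of 0 members against 10.1%, and LFD-vWAT-Exos the lowest value of 41.7% of members against 41.4%.

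Each gene's extremes were also counted over the 7 libraries. LFD-vWAT-Exos held the lowest value of 20 of 48 members (41.7%, background 41.4%) and the highest of 14 (29.2%, background 38.3%), and HFD-vWAT-Exos the lowest of 9 (18.75%, background 9.75%) and the highest of 0 (background 10.1%). The 3 HFD libraries all lay above the 3 LFD libraries in 1 of 48 members (2.08%, background 3.91%), which was Psmb10, and all below them in 5 (10.4%, background 3.49%), which were Psma7, Psmb4, Psmd6, Psmd7 and Psmd12. These 5 are named because their groups did not overlap, after their values were seen.

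Effects over several libraries were fitted with edgeR's quasi-likelihood F test across all genes, with Benjamini-Hochberg adjustment. The fits of diet (depot as block), of vWAT and of BAT against iWAT (diet as block) and of AT-Exos against the control gave adjusted p under 0.05 for 0 of 48 members in each of the 4 fits, while 0%, 0%, 0% and 0.00709% of all genes were called. At unadjusted p under 0.05 the 4 fits gave 0 members each, and 73, 366, 124 and 120 genes in all. DESeq2 called 8, 10, 2 and 5 genes and limma-voom 0, 0, 0 and 1, with 0 members by either tool. The members nearest to a call by edgeR were Psmd12 for diet (log2 difference -0.42, SE 0.21, adjusted p = 0.888), Psme2b for vWAT against iWAT (-0.82, SE 0.47, adjusted p = 0.777) and Psmc5 for AT-Exos against the control (-0.40, SE 0.18, adjusted p = 0.9999). Leaving out HFD-vWAT-Exos, so that LFD-vWAT-Exos alone stood for vWAT and was assumed to vary like the others, the edgeR fit called 40.4% of all genes, 20.6% lower and 19.8% higher, and 11 of 48 members, of which 8 were lower (Psme1, Psme2, Psme2b, Psma2, Psmb3, Psmb7, Psmc3ip and Psmd10) and 3 higher (Psmd8, Psmd12 and Psmf1). There Psme2b stood at -1.73 (adjusted p = 0.000867), Psme1 at -0.996 (adjusted p = 0.00542) and Psme2 at -0.87 (adjusted p = 0.0170). Leaving out LFD-vWAT-Exos from the fit of AT-Exos against the control gave 5 members at unadjusted p under 0.05, with Psmc5, Psma6, Psmd14 and Psma4 lower and Psmb9 higher, each with an edgeR adjusted p of 0.927.

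The share of the immunoproteasome among catalytic subunits was taken as the FPKM of Psmb8, Psmb9 and Psmb10 in percent of the FPKM of all 6 catalytic subunits. It was 8.18% in the control, 7.94%, 6.28% and 8.28% in the LFD libraries of iWAT, vWAT and BAT, and 9.34%, 9.26% and 9.70% in the HFD libraries. Each HFD library lay above each LFD library and above the control. The HFD libraries averaged 9.44% ± 0.235 (SD, n = 3) and the LFD libraries 7.50% ± 1.07 (SD, n = 3), where the 3 values are of different depots. The difference of 1.94 percentage points had p = 0.1 in an exact two-sided permutation test, the smallest p that 3 against 3 libraries allow, and an adjusted p of 0.133 over the 4 shares tested. Within depots the share was 1.41, 2.98 and 1.42 points higher in the HFD library for iWAT, vWAT and BAT (exact two-sided paired permutation p = 0.25, the smallest that 3 pairs allow). Without LFD-vWAT-Exos the difference was 1.33 points. On the scale of counts per kilobase of merged exons the shares ran from 4.60% in LFD-vWAT-Exos to 6.91% in HFD-BAT-Exos and the difference was 1.39 points. In raw reads 274 of 4523 catalytic subunit reads in the control (6.06%, exact 95% interval 5.38% to 6.79%) came from the 3 immunoproteasome genes, 107 of 1947 (5.50%, 4.53% to 6.60%) in LFD-vWAT-Exos and 290 of 3687 (7.87%, 7.02% to 8.78%) in HFD-iWAT-Exos. LFD-iWAT-Exos had 6.43% (5.77% to 7.14%) and LFD-BAT-Exos 6.78% (6.06% to 7.56%). HFD-vWAT-Exos had 7.48% (6.70% to 8.32%) and HFD-BAT-Exos 7.52% (6.75% to 8.36%). The intervals of LFD-iWAT-Exos and LFD-BAT-Exos overlapped those of all 3 HFD libraries. By pair, Psmb10 made up 23.7% of Psmb10 and Psmb7 in the HFD and 20.3% in the LFD libraries, and Psmb9 3.31% and 2.57% of Psmb9 and Psmb6 (exact two-sided permutation p = 0.1 for both). Psmb8 of Psmb8 and Psmb5 differed by 0.0082 points (exact permutation p = 1). Of 18 ratios of a pair relative to the control, 3 had counting intervals above 1, at 1.65 (1.23 to 2.24) for Psmb9 to Psmb6 in HFD-iWAT-Exos, 1.49 (1.11 to 2.01) for the same pair in HFD-vWAT-Exos and 1.30 (1.05 to 1.63) for Psmb10 to Psmb7 in HFD-BAT-Exos. The intervals of the other 15 included 1.

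**Figure D5:**
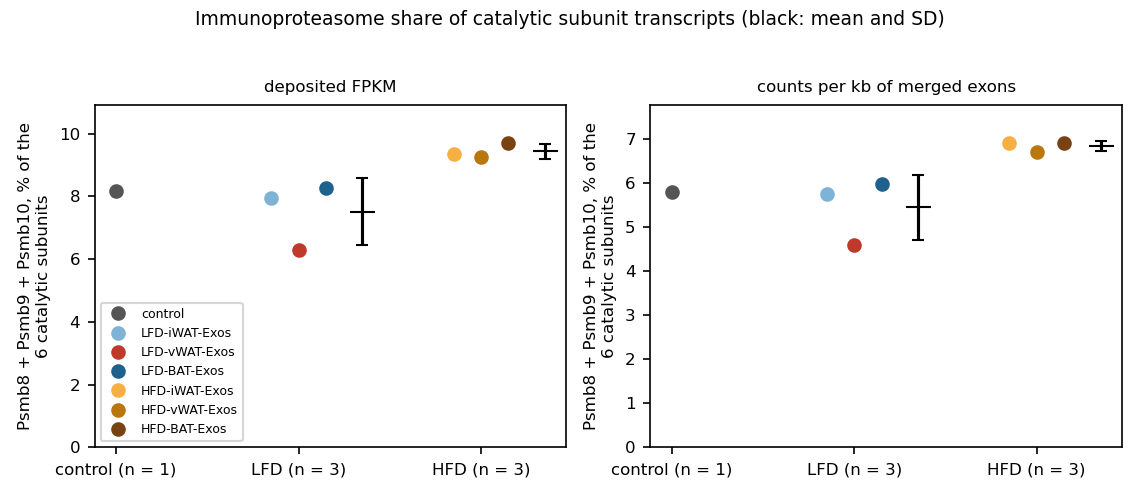
Share in percent (y axis) of Psmb8, Psmb9 and Psmb10 among the 6 catalytic subunits in each library, by group (x axis), from deposited FPKM (left) and from counts per kilobase of merged exons (right); points are libraries, and black marks are the mean and SD of the 3 LFD and the 3 HFD libraries. In the left panel the HFD libraries lie at 9.26% to 9.70% and the LFD libraries at 6.28% to 8.28%, with LFD-vWAT-Exos lowest.

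Genes that act beside the proteasome were taken as lists, and in LFD-vWAT-Exos some of them lay far from the control. Of 12 genes of MHC class I antigen processing 4 were at least 2-fold lower and 0 higher (background 17.1% lower and 13.3% higher), with a median log2 ratio of -0.79. They were Tapbp (tapasin, 4.23-fold lower), Erap1, which trims peptides (2.64-fold lower), the chaperone Calr (2.61-fold lower) and Nlrc5, the transactivator of class I genes (2.09-fold lower). Among genes of interferon signalling, Socs1, a feedback inhibitor, stood 6.18-fold lower, and the transcription factors Irf7 and Stat2 4.84-fold and 3.47-fold lower, while the kinase Jak1 was at least 2-fold higher. The 7 genes of the NRF1 axis had a median of 1.07, with 5 higher at least 2-fold. These were Maff (12.4-fold), Nfe2l2 (2.60-fold), Mafk (2.42-fold), Mafg (2.10-fold) and Ddi2, the protease that activates NRF1. Nfe2l1, which encodes NRF1, stood at 191 CPM against 358 CPM in the control, and at 229 and 231 CPM in LFD-iWAT-Exos and HFD-iWAT-Exos. Among proteasome factors outside the name rule, Zfand5, a proteasome-binding zinc finger protein, was 2.40-fold higher and the lid subunit Shfm1 2.10-fold lower. Of 8 genes of VCP and its ubiquitin shuttles 0 were apart. In the other 5 libraries against the control 0 genes of these lists were at least 2-fold from it except Maff, at 55.7 CPM in LFD-iWAT-Exos against 22.6 CPM. Jak1, Ddi2 and Nfe2l1 were named after their values were seen, and no test was made on any list.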

How the data were processed

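The libraries were 1 per group, and groups were taken from the treatment label. By the methods of the study, fastp trimmed the reads, HISAT2 aligned them and StringTie assembled and quantified the genes. A human reference is named there although cells and gene IDs are mouse; build, annotation and strand setting are not given in the sources used here, so reads of overlapping antisense genes (Psmc3ip, Psmd9) cannot be told apart from the members' own. The deposited counts are whole-number raw counts per gene, not normalized. The deposited FPKM values were computed by the authors from these counts and a gene length, which equals the sum of distinct exons of GENCODE M21 within 0.2% for 70.9% of 17001 genes and the merged exon length for 18.4%.

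The members and gene lists were chosen with earlier results of these data known. Counts were scaled by TMM factors (edgeR 4.0.16, R 4.3.3), whose value was 0.945 in LFD-vWAT-Exos and lay between 1.00 and 1.01 elsewhere. Ratios of 2 libraries used genes at 1 CPM or more in either, with exact Clopper-Pearson 95% intervals (scipy 1.17.1), and the 2-fold rule used a prior count of 2. Intervals cover counting error only. Fits across genes used edgeR's quasi-likelihood test, DESeq2 1.42.0 and limma-voom (limma 3.58.1), after filterByExpr. The 3 depots or 2 diets served as the only spread, so p-values measure the difference between these libraries, with 2 residual degrees of freedom for diet and depot and 5 for AT-Exos. The SE was derived from F and the log2 difference. Scripts were tested on simulated data. Genes were named by rule: the members of the 3 catalytic pairs, Psme1 and Psme2, members apart or called, the highest and lowest ratio of LFD-vWAT-Exos to the control in each role, and up to 4 genes per list with at least 50 counts; exceptions are stated. The comparison of protein sequences planned for the catalytic pairs was not run. Some results of the gene lists are not reported here.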

Additional observations from a re-analysis of the deposited data

Results flagged for a closer look

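For 10 members the difference of HFD against LFD exosomes had opposite directions in 2 depots, each beyond counting error. They are 20.8% of 48 members, while 33.5% of all 12901 genes met the same rule. In 9 of the 10 the opposition rests on the vWAT pair, and so on the LFD-vWAT-Exos library; Psmd8 also differed in direction between iWAT and BAT, as did 14.4% of all genes. The difference between depots was not tested, since each value rests on 2 single libraries. In log2 ratios of HFD against LFD, 8 of the 10 were higher for vWAT and lower for another depot. Psma2, an α-ring subunit, stood at 0.44 for vWAT, -0.12 for iWAT and -0.13 for BAT. The α-ring subunits Psma4 and Psma6 stood at 0.21 and 0.27 for vWAT and at -0.12 and -0.11 for BAT. Psmb3, a β-ring subunit, stood at 0.59 for vWAT and -0.21 for iWAT. The ATPase Psmc5 stood at 0.32 for vWAT and -0.20 for BAT, and the base scaffold Psmd1 at 0.30 and -0.14. Gankyrin, Psmd10, stood at 0.75 for vWAT and -0.24 for iWAT, and the chaperone Psmg4 at 0.85 for vWAT and -0.32 for BAT. The lid subunit Psmd8 and the inhibitor Psmf1 went the other way: Psmd8 stood at 0.20 for BAT, -0.27 for iWAT and -0.77 for vWAT, and Psmf1 at 0.16 for BAT and -0.25 for vWAT.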

How the results depend on the processing

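Each group had 1 library of 13493560 to 24345291 counts, so that differences between libraries have a counting error and no error between cultures, and Psmb8, at 15 to 19 reads a library, could not be compared. Over the alternatives run, 366 of 378 values stayed within counting error or 1.5 times of the reported one and 12 went further, and 0 called values changed sign. The median log2 ratio of the members lay near 0 and changed sign for HFD-vWAT-Exos against LFD-vWAT-Exos (0.01, and -0.02 with DESeq2 size factors and -0.0043 at 10 CPM or more) and for BAT against iWAT (0.02, and -0.04 without LFD-BAT-Exos and -0.0057 without HFD-iWAT-Exos). With genes at 10 CPM or more, 2 members in place of 4 were at least 2-fold apart for HFD-vWAT-Exos against LFD-vWAT-Exos, and on the log2(FPKM + 1) scale 2 in place of 4 for LFD-vWAT-Exos against LFD-iWAT-Exos, where low genes lie closer by construction. The count of members called in the edgeR fit of vWAT against iWAT ranged from 0 to 11 when 1 library was left out, the 11 being without HFD-vWAT-Exos. The immunoproteasome share differed by 1.33 to 2.33 percentage points between the diets when 1 library was left out. Its difference was 1.39 points in raw counts, and 1.39 points per kilobase of merged exons, a scale chosen after seeing the data. Diet without both vWAT libraries gave 12 genes and 0 members. The fits without LFD-vWAT-Exos called 11, 12, 0 and 11 genes for diet, vWAT, BAT and AT-Exos, with 0 members. The fits of diet and of depot pair the libraries by depot or by diet as a block, and the share paired by depot, a test added after seeing the data, had p = 0.25 (exact permutation). With replicate numbers, no paired analysis was possible because each group has 1 library. The planned comparison of protein sequences was not run.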
